A study of Mus musculus with 8 samples.

Results

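The vacuolar H+-ATPase (V-ATPase) is the proton pump that acidifies lysosomes, endosomes and phagosomes. The genes described here encode its membrane-embedded V0 sector and the accessory proteins that help to build it. They were taken by exact gene symbol from the annotation of the arrays: Tcirg1, Atp6v0a1, Atp6v0a2, Atp6v0d2, Atp6v0d1, Atp6v0b, Atp6v0c, Atp6v0e, Atp6ap1 and Atp6ap2. Of these 10 genes, 9 were measured by a probe set that names a single gene, out of 18820 such genes on the arrays, and Atp6v0c was not analysed here.

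Adipose tissue macrophages (ATMs) were taken from epididymal fat of male, wildtype C57Bl/6 mice after a high-fat diet (HFD, obese mice) or a matched low-fat diet (LFD, lean mice). The cells were bound with magnetic beads through the macrophage surface protein that Adgre1 encodes, and each array held RNA pooled from several mice. There were 4 HFD pools and 4 LFD pools, 1 of each from 4 separate experiments. The HFD was based on lard and provided 45 kcal% fat in experiments 1 and 3 and 60 kcal% in experiments 2 and 4, and the LFD provided 10 kcal% throughout. Per the labels both diets lasted 16 weeks in experiments 1 and 3, 15 weeks in experiment 2 and 10 weeks in experiment 4. The methods of the study give one duration for all, the longest of these, and the labels were followed here. The age of the mice was not given in the sources used here.

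The pump has a peripheral V1 sector, which splits ATP, and a V0 sector in the membrane, through which protons pass. A central stalk couples both: ATP hydrolysis turns a ring of small V0 subunits against the large a subunit, and protons are carried across in the process. Several V0 subunits exist as isoforms from separate genes that place the pump in different membranes. Macrophages use it to acidify lysosomes and phagosomes, and osteoclasts, bone-resorbing cells of the same lineage, place it in the surface membrane to dissolve bone mineral. Genes of the pump and of other lysosomal proteins are known targets of the MiT/TFE transcription factors (Mitf, Tfeb, Tfe3 and Tfec).

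Levels are log2 values of an array probe set, so a difference of 1 is a doubling, and levels of different genes cannot be ranked against each other. Levels of the 8 arrays had medians of 4.25 to 4.39 over all features. The arrays of experiment 1 stood apart from the others. Adgre1 itself had a log2 level of 8.58 in the HFD pool and 6.54 in the LFD pool of experiment 1, where the other experiments gave 10.19 to 10.70 on HFD and 9.95 to 10.95 on LFD. The mean level of 10 macrophage markers was 8.98 in the HFD pool and 7.74 in the LFD pool of experiment 1, and the HFD minus LFD difference of that mean was 1.24, 0.003, -0.32 and 0.09 in experiments 1, 2, 3 and 4. The mean of 18 endothelial markers ranged from 7.23 to 10.09 in HFD pools and from 5.59 to 10.44 in LFD pools, highest on both diets in experiment 1, and differed between diets by -0.35, -0.86, 1.99 and -1.66 in experiments 1 to 4. None of the macrophage or endothelial markers passed an unadjusted p of 0.05 for diet, with or without experiment as a block. Without experiment 1, 1 macrophage marker passed with the block, Cd68, by 0.39. Among markers of other cell types, 1 passed without the block, the adipocyte gene Retn, lower by -1.72. With the block the fibroblast genes Col1a1 (1.00) and Col3a1 (1.03) and the adipocyte gene Lep (0.45) were called higher, and the adipocyte genes Retn and Lipe (-0.56), the T cell gene Cd4 (-1.04), the B cell genes Cd79b (-0.88) and Blk (-0.22) and the eosinophil gene Prg2 (-0.31) lower, while 0 of the mural, mesothelial, neutrophil, dendritic cell or epididymal epithelium markers were called. Of all genes, 3.30% were called higher and 1.51% lower without the block, and 7.95% and 4.16% with it. The median difference of 8 fibroblast markers was 0.48. The part of these cell types in the results was not tested. In pooled tissue isolates of this kind, fewer cells of a type and less RNA per cell cannot be told apart. Results are therefore given for each experiment, and with and without experiment 1.

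**Figure D1:**
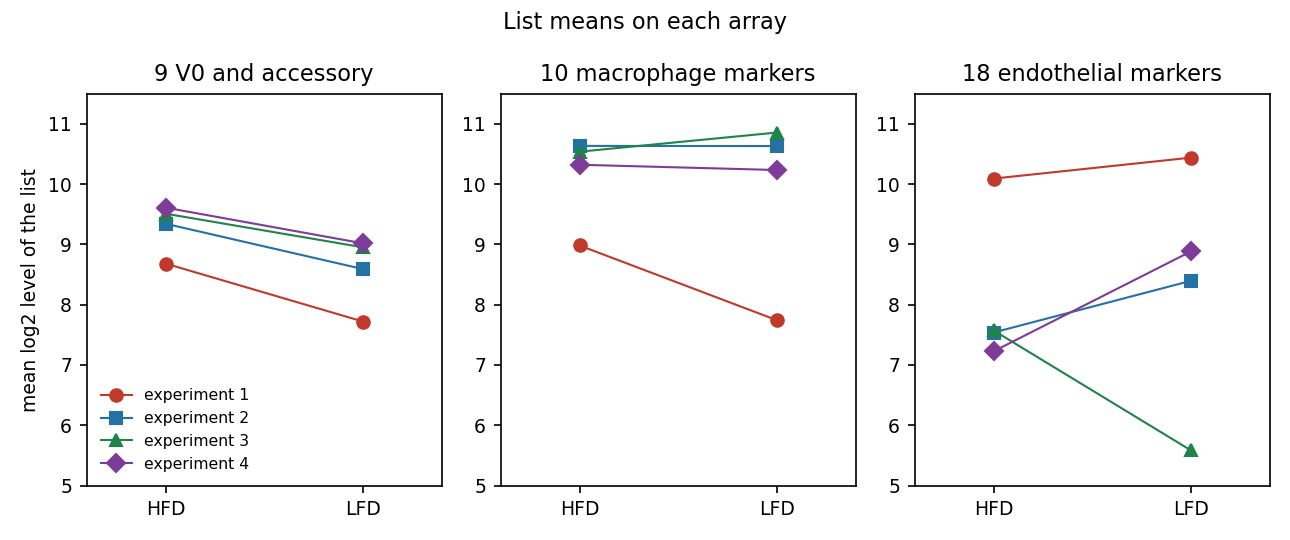
Mean log2 level of the 9 V0 and accessory genes, of 10 macrophage markers and of 18 endothelial markers on each array, with HFD on the left and LFD on the right and a line joining the pools of 1 experiment. The V0 mean was higher in the HFD pool of all 4 experiments, while the macrophage mean was low in both pools of experiment 1 and the endothelial mean varied in both directions.

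The promoters of the members were searched for a motif that MiT/TFE factors are known to bind. RefSeq start sites (assembly GRCm38.p6) gave promoter windows for 8 of the 10 listed genes, from 250 bases before to 50 bases after the start. The motif CACGTG, which reads the same on both strands, was present in the windows of Atp6v0b, Atp6v0d1 and Atp6v0e, that is 3 of the 8 genes, and in 8.09% of all 27025 genes with a window. Each of these matches also held the longer TCACGTG on at least one strand, which contains CACGTG and was found in 4.29% of all genes. The windows of Tcirg1 (3 start sites), Atp6v0a1, Atp6v0c, Atp6ap1 and Atp6ap2 did not contain these letters, and Atp6v0a2 and Atp6v0d2 had no entry. Atp6v0d1 and Atp6v0e, with a match, were higher on HFD in all 4 experiments, and so were Tcirg1, Atp6v0a1 and Atp6ap1, without one. Atp6v0b, with a match, and Atp6ap2, without one, were not. Shown 5′ to 3′ on the gene strand, with CACGTG in capitals, are the stretches with the match and bases upstream of Tcirg1 and Atp6v0a1. For Atp6v0b this is the run of 100 bases before the start (chr4:117887330-117887429, minus strand), with matches beginning at positions -36 and -18. For Atp6v0d1 it is 30 bases across the start (chr8:105566050-105566079, minus strand), with a match beginning at -3, and for Atp6v0e it is 30 bases across the start (chr17:26676387-26676416, plus strand), with a match beginning at base 4 of the transcript. For Tcirg1 (first listed start, chr19:3907134-3907233, minus strand) and Atp6v0a1 (chr11:101010298-101010397, plus strand) they are the 100 bases before the start. A match of letters does not show that a factor binds there.
Atp6v0b: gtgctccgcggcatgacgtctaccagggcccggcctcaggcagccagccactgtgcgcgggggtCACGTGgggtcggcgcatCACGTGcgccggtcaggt
Atp6v0d1: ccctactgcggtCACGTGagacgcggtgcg
Atp6v0e: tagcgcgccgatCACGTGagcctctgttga
Tcirg1: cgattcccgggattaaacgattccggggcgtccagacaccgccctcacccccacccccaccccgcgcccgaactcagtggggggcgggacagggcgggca
Atp6v0a1: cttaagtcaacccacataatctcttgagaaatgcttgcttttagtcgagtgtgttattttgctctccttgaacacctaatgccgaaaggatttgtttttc

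All 9 measured genes had a higher mean level in ATMs from obese than from lean mice, by a log2 difference of 0.24 for Atp6ap2 to 2.73 for Atp6v0d2 as deposited. With arrays centred on macrophage markers the sign of Atp6ap2 turned and 4 others were at about 0.10 or less, and without the LFD pool of experiment 1 those of Atp6v0b and Atp6ap2 turned. Their median difference was 0.35, against 0.005 over all 18820 genes. In 7 of the 9 genes the HFD pool had the higher level in all 4 experiments, which was the case for 11.0% of all genes, and 0 were lower in all 4, as 7.43% of all genes were. HFD and LFD levels overlapped for every one of the 9 genes, and 1.19% of all genes had every HFD pool above every LFD pool. The moderated test of limma on the 8 arrays called 2 of the 9 genes higher (unadjusted p under 0.05), Atp6v0d2 and Tcirg1, and 0 lower, beside 3.30% of all genes called higher and 1.51% called lower. With experiment as a block, 7 of the 9 were called higher and 0 lower, all but Atp6v0b and Atp6ap2, beside 7.95% and 4.16% of all genes. With experiment as a random block (estimated correlation 0.416), 4 were called higher, Atp6v0a1, Atp6v0d2, Atp6v0e and Tcirg1, beside 7.24% of all genes. The unadjusted p was then 0.0833 for Atp6v0a2, 0.158 for Atp6v0d1 and 0.0573 for Atp6ap1, and the lowest adjusted p of the 9 was 0.236. With the block and without experiment 1, 5 of the 9 were called higher, namely Atp6v0a1, Atp6v0d2, Atp6v0e, Tcirg1 and Atp6ap1, beside 7.15% of all genes. After Benjamini-Hochberg adjustment over all genes, 0% of genes passed 0.05 in limma without the block and 0% passed with it. The adjusted p of the 9 genes ranged from 0.982 to 0.999 without the block and from 0.0575 to 0.727 with it.

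**Figure D2:**
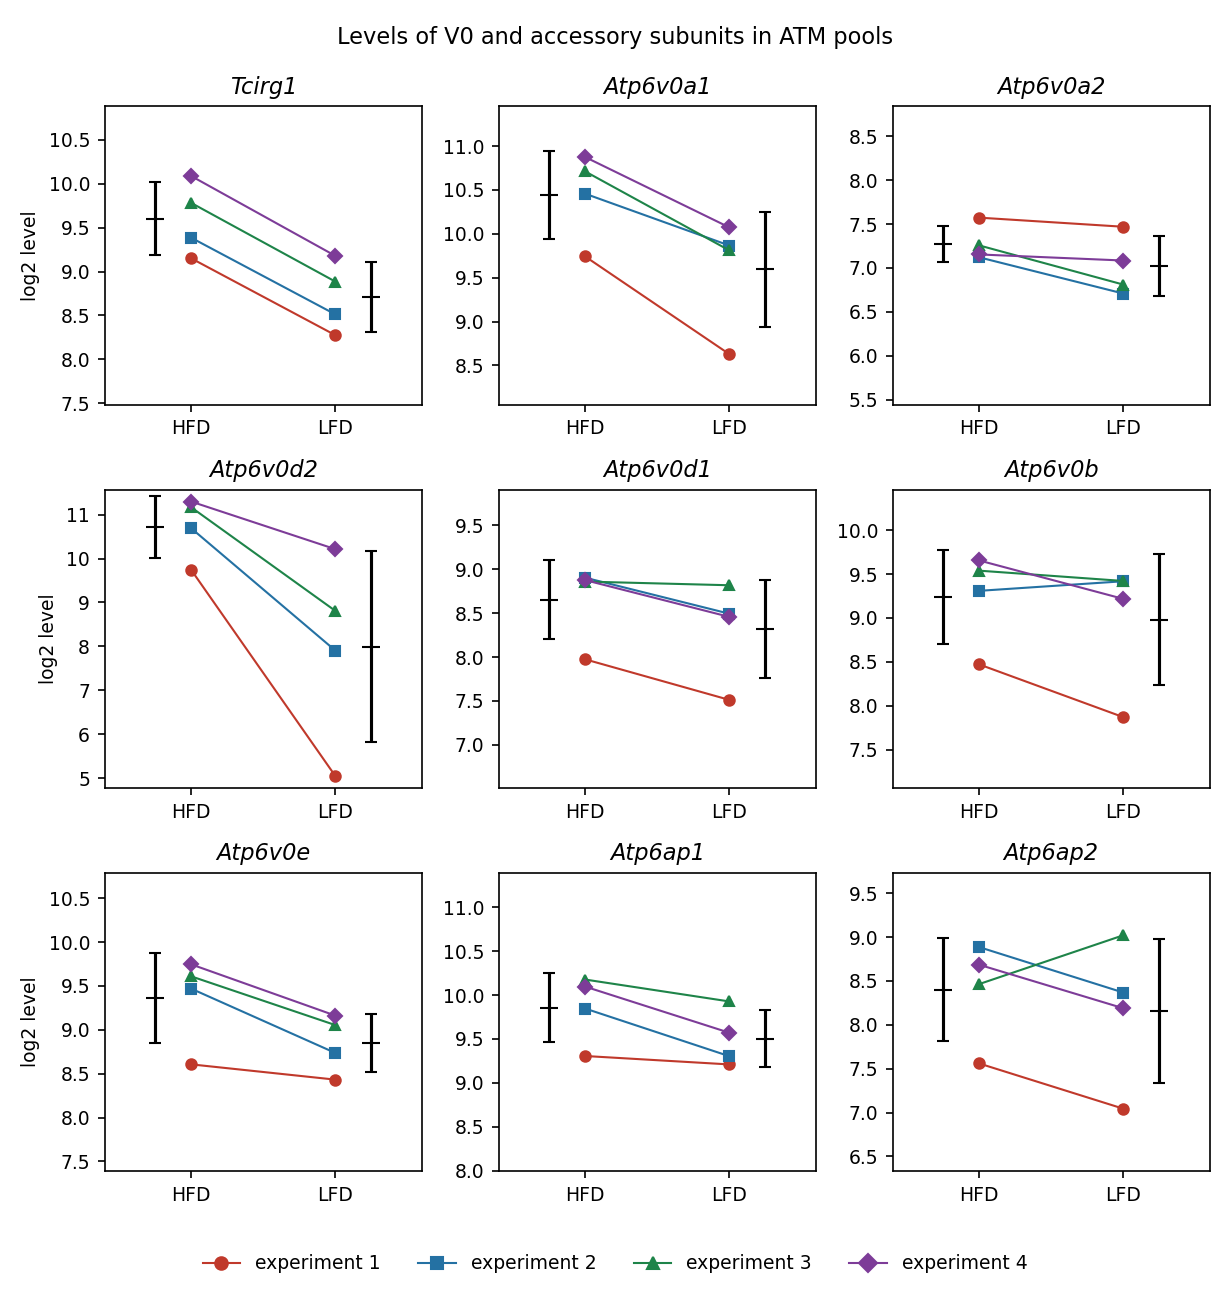
Log2 level of each measured gene in the HFD pools (left) and LFD pools (right), with a line joining the 2 pools of an experiment and black bars giving the mean and SD of 4 pools. The vertical scale of Atp6v0d2 spans a wider range than the others. Lines slope down to LFD in all 4 experiments for 7 genes, and the exceptions are Atp6v0b in experiment 2 and Atp6ap2 in experiment 3.

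The a subunit is the large fixed part of V0 along which protons cross the membrane, and its isoforms direct the pump to different compartments. Tcirg1 encodes the a3 isoform, which serves lysosomes and the acid-secreting membrane of osteoclasts, and loss of which causes osteopetrosis. The log2 level of Tcirg1 was 9.15, 9.39, 9.78 and 10.09 in the HFD pools of experiments 1, 2, 3 and 4, and 8.28, 8.51, 8.89 and 9.18 in the LFD pools. The experiments took the same order on both diets, and the groups overlapped only because the lowest HFD pool, in experiment 1, lay just below the highest LFD pool, in experiment 4. Tcirg1 averaged 9.60 ± 0.42 in HFD pools and 8.71 ± 0.40 in LFD pools (SD, n = 4 each). The log2 difference was 0.89 ± 0.26 (SE), or 1.85-fold. Here and below, the SE of a gene's diet difference is that of limma without the block unless stated otherwise. The difference was 0.88, 0.87, 0.90 and 0.91 in the 4 experiments, with an SD of 0.018. Of the 335 genes with a mean difference of at least this size in either direction, 1 had an SD this small, Tcirg1 itself, and the median SD of these genes was 0.68. As deposited, the diet difference of Tcirg1 was thus as large in experiment 1 as in the others, and without experiment 1 it was 0.89 ± 0.24. The macrophage mean itself differed between diets by 1.24, 0.003, -0.32 and 0.09 in experiments 1 to 4. Relative to that mean the 4 differences of Tcirg1 were not alike. In experiment 1 the difference of Tcirg1 was smaller than that of the macrophage mean. The unadjusted p of limma was 0.00988 without the block (adjusted p = 0.982) and 2.99e-05 with it (adjusted p = 0.0575), and the exact permutation test of 4 against 4 pools gave a two-sided p of 0.0571, where the smallest possible is 0.0286. Tcirg1 passed the unadjusted threshold with each of the 8 arrays left out in turn (p of 0.00554 to 0.0295 in limma without the block).

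Atp6v0a1 encodes the a1 isoform, best known from neurons, where it serves synaptic vesicles. Its log2 level was 9.74, 10.46, 10.71 and 10.88 in the HFD pools and 8.63, 9.87, 9.81 and 10.07 in the LFD pools of experiments 1 to 4. Experiment 1 had the lowest pool on both diets, and its HFD pool was below 3 of the LFD pools. Atp6v0a1 averaged 10.45 ± 0.50 in HFD pools and 9.60 ± 0.65 in LFD pools (SD, n = 4 each). The differences of 1.11, 0.59, 0.90 and 0.80 averaged 0.85, or 1.80-fold, with an SE of 0.37 without the block and 0.11 with it. Limma gave an unadjusted p of 0.0507 without the block and 0.000308 with it (adjusted p = 0.0749), and the exact permutation test a p of 0.114. Without experiment 1 the difference was 0.76 ± 0.14, and without its LFD pool alone 0.53.

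Atp6v0a2 encodes the a2 isoform of Golgi and endosomal membranes. Its level was 7.57, 7.12, 7.26 and 7.15 in the HFD pools and 7.47, 6.71, 6.81 and 7.08 in the LFD pools. Unlike Tcirg1 and Atp6v0a1, it had its highest level on both diets in experiment 1. The differences were 0.10, 0.41, 0.45 and 0.07, with a mean of 0.26 (SE 0.18 in limma without the block). Limma with the block gave an SE of 0.10 and an unadjusted p of 0.0484 (adjusted p = 0.407). A dimmer probe set of Atp6v0a2 averaged 5.60 in HFD pools and 5.67 in LFD pools, a difference of -0.07, so the probe sets of this gene did not have the same sign, and their mean differed by 0.09. For the brighter probe set the difference was 0.15 without the LFD pool of experiment 2 and 0.41 without that of experiment 1. The diet difference of Tcirg1 minus that of Atp6v0a2 was 0.77, 0.46, 0.45 and 0.84 in experiments 1 to 4. The mean was 0.63 ± 0.10 (SE of these 4 values). The diet difference of Tcirg1 minus that of Atp6v0a1 was -0.24, 0.28, -0.003 and 0.11, above 0 in 2 of 4 experiments. The mean was 0.04 ± 0.11 (SE of these 4 values). The exact two-sided sign-flip test over the 4 experiments gave p = 0.125 for the first pair and p = 0.75 for the second (0.188 and 0.75 adjusted over the 3 isoform pairs compared), and 0.125 is the smallest p that 4 pairs allow.

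The d subunit joins the rotating stalk to the ring of small subunits in the membrane. Atp6v0d2 encodes an isoform restricted to few tissues and known from osteoclasts, where it is needed for the fusion of precursors, and from macrophages. Its log2 level was 9.74, 10.69, 11.17 and 11.30 in the HFD pools and 5.05, 7.90, 8.81 and 10.22 in the LFD pools of experiments 1 to 4. The LFD pools spread over more than 5 log2 units and the HFD pools over less than 2, and the LFD pool of experiment 4, after 10 weeks of diet, lay above the HFD pool of experiment 1. Atp6v0d2 averaged 10.73 ± 0.71 in HFD pools and 7.99 ± 2.18 in LFD pools (SD, n = 4 each). The log2 difference was 2.73 (SE 1.02 in limma without the block), or 6.65-fold. The difference was 4.70 in experiment 1, 2.79 in experiment 2, 2.36 in experiment 3 and 1.08 in experiment 4. The LFD level of 5.05 behind the largest of these lay just above 4.91, the limit used for dim probe sets. The difference in experiment 1 stood beside a difference of 1.24 in the mean of the macrophage markers. Without experiment 1 the mean difference was 2.08 ± 0.57, without the LFD pool of experiment 1 alone it was 1.75, and with arrays centred on macrophage markers it was 2.48. Limma gave an unadjusted p of 0.0284 without the block (adjusted p = 0.982) and 0.00324 with it (adjusted p = 0.167), and the exact permutation test a p of 0.0571. Without the block, the unadjusted p of Atp6v0d2 was 0.0555, 0.0657 or 0.0688 when the HFD pool of experiment 2, 3 or 4 was left out, and 0.0593 without the LFD pool of experiment 2.

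Atp6v0d1 encodes the d isoform found in all tissues. Its level was 7.97, 8.90, 8.86 and 8.88 in the HFD pools and 7.51, 8.49, 8.82 and 8.46 in the LFD pools. Both pools of experiment 1 were low, and the other HFD pools lay within 0.1 of each other. The differences were 0.46, 0.41, 0.04 and 0.42, with a mean of 0.33 (SE 0.32 in limma without the block). Limma with the block gave an SE of 0.10 and an unadjusted p of 0.0187 (adjusted p = 0.301). Without experiment 1 the difference was 0.29 ± 0.12, and with the block its unadjusted p was then 0.0724. The difference was 0.06 without the LFD pool of experiment 1 alone and 0.56 without its HFD pool alone. The diet difference of Atp6v0d2 exceeded that of Atp6v0d1 in all 4 experiments, by 4.24, 2.38, 2.32 and 0.67. The mean was 2.40 ± 0.73 (SE of these 4 values). The exact sign-flip test gave p = 0.125, the smallest that 4 pairs allow (0.188 adjusted over the 3 pairs).

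**Figure D3:**
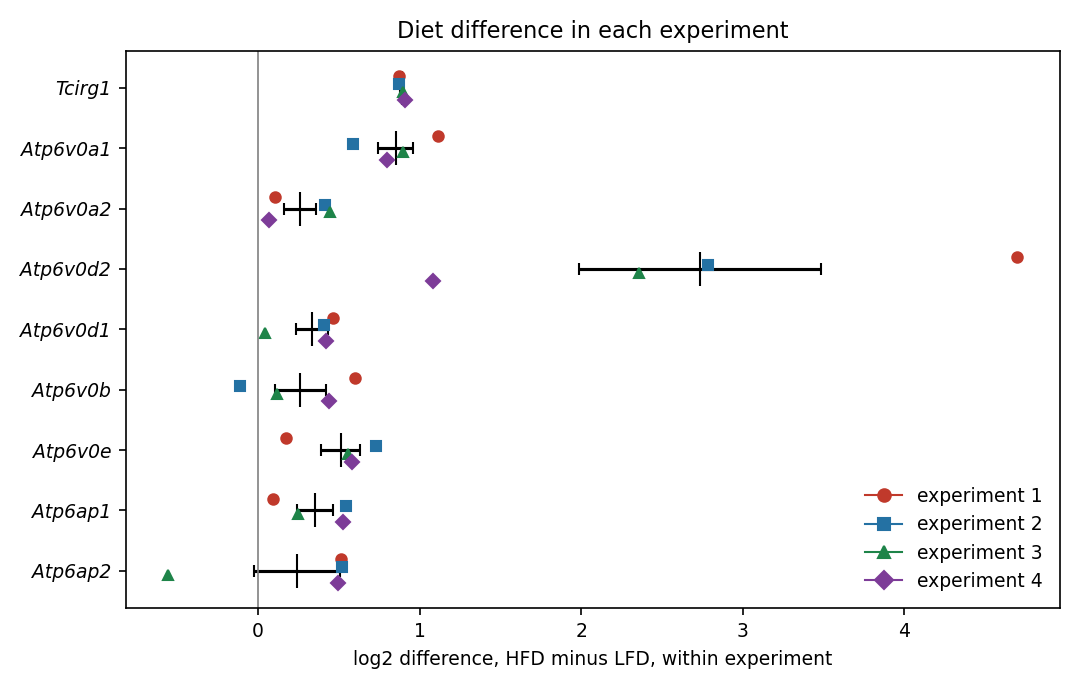
HFD minus LFD difference in log2 level of each measured gene in the 4 experiments (coloured symbols). Black bars give the mean and the SE of the 4 differences, which is not the SE of limma given in the text. The 4 differences of Tcirg1 lie between 0.87 and 0.91, those of Atp6v0d2 between 1.08 and 4.70, and only Atp6v0b and Atp6ap2 have a difference below 0.

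Atp6v0b encodes a subunit of the proton-carrying ring. Its level was 8.47, 9.31, 9.54 and 9.65 in the HFD pools and 7.87, 9.42, 9.42 and 9.22 in the LFD pools. The LFD pool of experiment 1 was far below the other LFD pools, and in experiment 2 the HFD pool was the lower of the pair. The differences were 0.60, -0.11, 0.12 and 0.44, with a mean of 0.26 (SE 0.41 in limma without the block). Limma with the block gave an SE of 0.14 and an unadjusted p of 0.109 (adjusted p = 0.54). The mean difference became -0.11 when the LFD pool of experiment 1 was left out and 0.52 when its HFD pool was, and was 0.15 ± 0.12 without both pools of that experiment.

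Atp6v0e encodes a small membrane subunit of V0. Its level was 8.61, 9.47, 9.61 and 9.75 in the HFD pools and 8.43, 8.74, 9.05 and 9.16 in the LFD pools. The HFD pools of experiments 2 to 4 were all above every LFD pool. The differences were 0.17, 0.73, 0.56 and 0.58, with a mean of 0.51 (SE 0.28 in limma without the block) or 1.43-fold. Limma with the block gave an SE of 0.11 and an unadjusted p of 0.00482 (adjusted p = 0.192). Experiment 1 had the smallest difference, and without it the mean was 0.62 ± 0.14.

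The accessory proteins are not part of the ring or stalk. Atp6ap1 encodes Ac45, which takes part in assembly and sorting of the pump, and Atp6ap2 encodes the prorenin receptor, a fragment of which sits in V0. The level of Atp6ap1 was 9.31, 9.85, 10.18 and 10.10 in the HFD pools and 9.21, 9.30, 9.93 and 9.57 in the LFD pools. Its differences of 0.10, 0.54, 0.25 and 0.53 averaged 0.35 (SE 0.23 in limma without the block). Limma with the block gave an SE of 0.11 and an unadjusted p of 0.0186 (adjusted p = 0.3). Without the HFD pool of experiment 1 its difference was 0.54. The level of Atp6ap2 was 7.56, 8.89, 8.46 and 8.68 in the HFD pools and 7.04, 8.37, 9.02 and 8.19 in the LFD pools. The differences of Atp6ap2 were 0.52, 0.52 and 0.50 in experiments 1, 2 and 4 but -0.56 in experiment 3. Their mean was 0.24 (SE 0.45 in limma without the block). Limma with the block gave an SE of 0.21 and an unadjusted p of 0.291. The mean difference was -0.13 without the LFD pool of experiment 1 and 0.53 without that of experiment 3. The LFD pool of experiment 3, the highest of all 8 for Atp6ap2, also had the lowest endothelial mean of all 8 (5.59) and the highest macrophage mean (10.85), and the part of either in this value was not tested.

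Arrays were also put on a common macrophage level by subtracting the mean of the 10 macrophage markers. This moved the mean difference of every gene by -0.25, which by construction leaves the distances between these means as they were. The median difference of all genes was then -0.25. The shift was not the same in each experiment, as the macrophage mean differed between diets by 1.24, 0.003, -0.32 and 0.09 in experiments 1 to 4. In experiment 1 this 1.24 exceeded the difference of every measured member but Atp6v0d2 (4.70). Relative to the macrophage mean, all others were thus lower in the HFD pool of experiment 1. As a mean over the 4 experiments, Atp6v0d2 differed by 2.48 after centring, Tcirg1 by 0.64, Atp6v0a1 by 0.60 and Atp6v0e by 0.26. The other 5 were near 0, with 0.10 for Atp6ap1, 0.08 for Atp6v0d1, 0.009 for Atp6v0b, 0.005 for Atp6v0a2 and -0.0096 for Atp6ap2. The fit then gave each of the 9 genes the same SE (0.88 without and 0.39 with the block), so its p-values order the genes by the size of their difference alone and are not given here.

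The difference between diets was also compared between the fat contents of the HFD. At 45 kcal% (experiments 1 and 3) the mean difference of Atp6v0d2 was 3.53 and at 60 kcal% (experiments 2 and 4) it was 1.94, a difference of -1.59 ± 1.98 (SE). Tcirg1 differed by 0.89 at either fat content, with 0.01 ± 0.57 between them. The interaction of diet with fat content had an unadjusted p above 0.05 for all 9 genes with and without the block, and 0 of all genes passed the adjusted threshold, while 225 of all genes passed an unadjusted p of 0.05 without and 743 with the block. Experiment 4, at 60 kcal%, also had the shortest diet, so fat content and weeks of diet cannot be fully told apart, and experiment 1, with its low macrophage markers, was at 45 kcal%.

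The V1 sector, which holds the catalytic A and B subunits and the stalks, was described next to V0. All 13 measured V1 genes had a higher mean in HFD pools as deposited, and 9 of the 13 with arrays centred on macrophage markers. Their median log2 difference was 0.30 (0.35 for the V0 and accessory genes, 0.005 for all genes). Limma called 1 of the 13 higher at an unadjusted p under 0.05 without the block, beside 3.30% of all genes. It called 8 with the block (7.95%) and 6 with the block and without experiment 1 (7.15%), and 0 lower in each of the first 2 fits. Atp6v1a, the catalytic A subunit, had levels of 9.05, 9.78, 9.83 and 10.20 in the HFD pools and 7.88, 8.45, 9.27 and 9.22 in the LFD pools. Its difference was 1.01 ± 0.37 (SE), with an unadjusted p of 0.0254 in limma without the block. The B subunit Atp6v1b2 differed by 1.15 ± 0.54 and the stalk subunit Atp6v1c1 by 0.90 ± 0.40, both higher in all 4 experiments. The 5 V1 genes not called with the block, named after their values were seen, were Atp6v1b1, Atp6v1c2, Atp6v1e2, Atp6v1g2 and Atp6v1g3, the isoforms known from kidney, testis, brain and a few other tissues. Their levels were between 2.27 and 5.39 on all arrays. Within V0, the brain isoform Atp6v0e2 had means of 4.64 in HFD pools and 4.66 in LFD pools, both below 4.91, the limit for dim probe sets.

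Other genes around the pump were taken as lists. With arrays centred on macrophage markers, 2 of 8 V-ATPase assembly genes were above 0 (7 as deposited), with a median of -0.03. Of 10 other lysosomal ion transport genes, 4 were then above 0 (8 as deposited), with a median of -0.11. Of 4 MiT/TFE factors, 3 were (4 as deposited), with a median of 0.15. Of all genes, 3.30% were called higher without the block, and 7.95% higher and 4.16% lower with it. Of 8 genes for assembly and regulation of the V-ATPase, with a median difference of 0.22, 1 was called higher without the block (Wdr7, by 0.36 ± 0.15), and with the block 3 were called higher and 1 lower. Vma21, a chaperone of V0 in the endoplasmic reticulum, had levels of 7.22, 8.91, 9.03 and 8.74 in the HFD pools and 6.86, 7.82, 8.58 and 7.81 in the LFD pools, a difference of 0.70 ± 0.49. The gene called lower was Rogdi, which belongs to the complex that reassembles the pump, by -0.38 ± 0.24, and it was lower in all 4 experiments. Of 10 other lysosomal channels and transporters, with a median of 0.14, 1 was called higher without the block (Clcn7) and 3 with it. Clcn7, the lysosomal chloride-proton exchanger, differed by 0.77 ± 0.29, and Tpcn2, a lysosomal cation channel, by 0.99 ± 0.43, while the calcium channel Mcoln1 differed by 0.13 ± 0.15. Of the 4 MiT/TFE factors, 0 were called without the block and 2 with it. Mitf differed by 0.86 ± 0.64 and Tfeb by 0.34 ± 0.22, both higher in all 4 experiments, and Tfe3 by 0.005 ± 0.29.

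**Figure D4:**
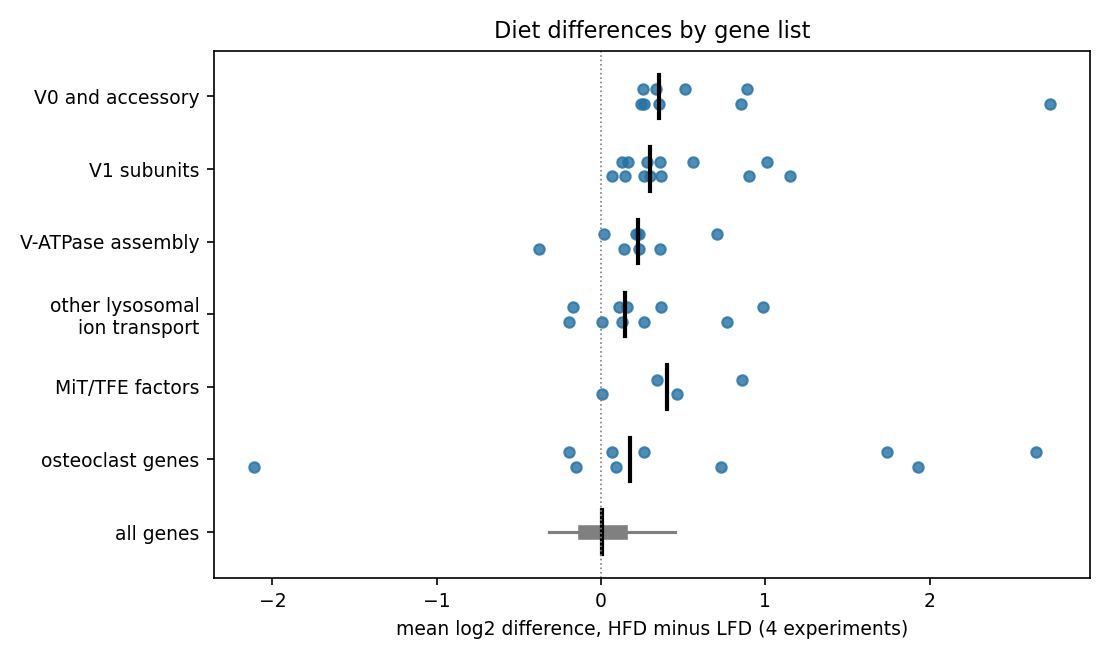
Mean HFD minus LFD difference in log2 level (4 experiments) of each measured gene of 6 lists, with black bars at the medians. The grey bar for all 18820 genes runs between percentiles 25 and 75 (-0.10 to 0.11) and the thin line between percentiles 5 and 95 (-0.32 to 0.45). The 9 V0 and accessory genes and the 13 V1 genes lie above 0, of which 8 and 9 remain above 0 with arrays centred on macrophage markers, and the osteoclast list reaches from -2.11 to 2.65.

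Because Atp6v0d2 and Tcirg1 are known from osteoclasts, other osteoclast genes were set beside them. Of 10 such genes, with a median difference of 0.18, limma without the block called 3 higher and 1 lower (unadjusted p under 0.05). The shares of all genes were 3.30% and 1.51%. With the block 4 were called higher and 1 lower, beside 7.95% and 4.16% of all genes. With the block and without experiment 1, 4 were called higher, beside 7.15% of all genes. With arrays centred on macrophage markers, 5 of the 10 were above 0 (7 as deposited), with a median of -0.08. Ctsk, the collagen-degrading cathepsin of osteoclasts, had levels of 8.10, 8.83, 9.66 and 9.96 in the HFD pools and 5.62, 6.02, 5.81 and 8.50 in the LFD pools, a difference of 2.65 ± 0.70 (SE). The fusion genes Dcstamp and Ocstamp differed by 1.93 ± 0.64 and 0.73 ± 0.27. Both had levels near or below 4.91, the limit used for dim probe sets. Dcstamp had 3.04, 3.29, 4.92 and 5.42 in the LFD pools of experiments 1 to 4. Ocstamp had 4.10, 4.00, 4.85 and 4.59 there, and 4.85 and 4.74 in the HFD pools of experiments 1 and 2. Mmp9, a matrix metalloproteinase, differed by -2.11 ± 0.79. Acp5, the tartrate-resistant acid phosphatase, differed by 1.74 ± 0.89 and was called with the block alone, while the transcription factor Nfatc1 differed by -0.15 ± 0.09 and was called in neither fit.

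The genes whose pattern over the 8 arrays was nearest to that of Atp6v0d2, by Euclidean distance between gene-centred log2 levels, were Adam8, Tm4sf19, Il7r, Mmp12 and Rnf128. Adam8, a membrane-bound metalloproteinase, had a distance of 0.994 and differed between diets by 3.96, 2.85, 2.75 and 0.88 in experiments 1 to 4, next to 4.70, 2.79, 2.36 and 1.08 for Atp6v0d2. Tm4sf19 had a distance of 1.19 and Mmp12, macrophage elastase, one of 1.59. Nearest to Tcirg1 were Osbpl3 (distance 0.221), Specc1, Gnptab, Evl and Slc39a11. Gnptab, which encodes the enzyme that starts the mannose 6-phosphate tag of lysosomal hydrolases, differed by 0.58, 0.83, 0.73 and 0.92 in experiments 1 to 4. These distances describe the same 8 arrays on which the diet differences were measured.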

How the data were processed

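The authors deposited log2 values of 8 Affymetrix whole-transcript arrays; the tool listed by the submitters is RMA, and its version and the genome build were not given in the sources used here. Of 35556 features, 21218 had 1 gene symbol, 1881 several and 12457 no annotation. A gene was read from its probe set with the highest mean, with no further scaling. HFD was compared with LFD in limma 3.58.1 (R 4.3.3; lmFit, eBayes, Benjamini-Hochberg over all 18820 genes, threshold 0.05) without a block, after the unpaired test of the methods. The labels give the experiment number. Deviations from the diet means correlated between both arrays of each experiment (r across genes, which are no independent replicates, of 0.889, 0.357, 0.652 and 0.186). The HFD array correlated best with the LFD array of its own experiment in experiments 1 and 3, but not in experiments 2 and 4. By the labels experiment pairs the samples, and it was a block in the second fit. Without the block, the p-values of limma measure the spread between pools of a diet. With the fixed block they measure the spread of the within-experiment differences. In both fits this spread is moderated over all genes, and precision is limited by the number of arrays. The members and lists were chosen with earlier results of these data known. The text names all 10 members, up to 4 genes of smallest p per other list, up to 2 well-known ones, and the 5 nearest genes by distance. Alternatives were blocks, scalings, filters, left-out arrays, an endothelial covariate and the methods' t-test.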

Additional observations from a re-analysis of the deposited data

Results flagged for a closer look

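Among 27 groups of 4 values (levels in HFD pools, levels in LFD pools and within-experiment differences of the 9 genes), 4 held a value set apart from the other 3 by Dixon's test, which flags about 1 in 20 groups by chance. The level of Atp6v0d1 was 7.97 in the HFD pool of experiment 1, against 8.86 in the next HFD pool. The level of Atp6v0b was 7.87 in the LFD pool of experiment 1, against 9.22 in the next LFD pool. The HFD minus LFD difference in experiment 3 was 0.042 for Atp6v0d1, against 0.41 for the next experiment. It was -0.56 for Atp6ap2, against 0.50 for the next. In experiment 3 the endothelial marker mean was 7.57 in the HFD pool and 5.59 in the LFD pool, and its part in these values was not tested.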

How the results depend on the processing

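The number of the 9 genes called higher at an unadjusted p under 0.05 was 2 without the block (share of all genes called higher 3.30%). It was 7 with experiment as a fixed replicate block (7.95%), 4 as a random one (7.24%), 6 without experiment 1 (6.26%), 0 at 45 kcal% alone (0.473%), 5 at 60 kcal% alone (6.49%), 5 with endothelial markers as a covariate (6.01%) and 1 by the methods' t-test (2.78%), which called 0 of all genes after Benjamini-Hochberg adjustment. With arrays centred on macrophage markers it was 1 (0.112%), in a fit that gave the 9 genes a common SE. Leaving out 1 array gave 1 to 5. The median difference (0.35) was 0.44 without experiment 1, 0.53 at 60 kcal% alone, 0.30 with arrays centred on their median, 0.10 centred on macrophage markers and 0.26 to 0.56 without 1 array. Combinations with the replicate block were chosen after seeing the data: it called 5 without experiment 1 (7.15%; median 0.44), 5 without experiment 4 (5.69%), 6 without dim probe sets (11.9%), 1 centred on macrophage markers (0.978%; median 0.10) and 4 centred on array medians (5.2%; median 0.30). Tcirg1 had an adjusted p of 0.048 without dim probe sets, where 23 of all genes passed, and 0.0411 on array medians, where 70 did, and over all its alternatives from 0.0411 to 1.

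Of 26 alternatives the difference of 7 genes was above 0 in all. Atp6ap2 turned to -0.020 at 45 kcal% alone, to -0.0096 with macrophage centring, with or without the block, and ranged from -0.13 to 0.53 without 1 array. Atp6v0b ranged from -0.11 to 0.52 without 1 array. Both lows came without the LFD pool of experiment 1, and without that pool the difference of Atp6v0d2 was 1.75 and that of Atp6v0d1 0.06. Tcirg1 minus Atp6v0a1 ranged from -0.044 (without experiment 2) to 0.13. Without experiment 1, the diet difference of 1 gene, Atp6ap2, differed by fat content at an unadjusted p of 0.0115 (adjusted p = 0.49), where the 45 kcal% arm is experiment 3 alone, with its difference of -0.56, and the spread is taken from the other arm. The cause of these shifts was not tested.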
